A study of Mus musculus with 12 samples.

Results

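The response to lipopolysaccharide (LPS) was measured in those clones of MH-S cells whose labels give low IL-4Ra activity. MH-S is an immortalised line of mouse alveolar macrophages, and IL-4Ra is the receptor chain that IL-4 and IL-13 share. The arrays were chosen by their labels alone: the LPS arrays of clones 7, 29 and 75 were set against the unstimulated arrays of the same clones. They are 6 of the 12 arrays of the study, and all 27296 genes measured by a main-category feature with a symbol were analysed. The LPS group received 0.2 µg/ml LPS of the rough Salmonella Minnesota strain R595 for 16 h, and the unstimulated group was kept for the same 16 h without it. Both groups grew in the same medium with heat-inactivated bovine serum. The other 6 arrays came from clones 69, 73 and 83, labelled as having high IL-4Ra activity, in the same conditions and with 1 array per clone and condition. They serve here only to show where the low clones differ. Every array stands for a single clone of the line. The p-values thus rest on the spread between these clones, moderated over all genes, and not on that between animals. The labels do not say how IL-4Ra activity was scored.

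LPS of the bacterial outer membrane is sensed by a complex of TLR4 and MD-2, helped by CD14. The adaptor MyD88 leads to NF-kB and the early inflammatory genes, while TRIF leads to IRF3 and interferon beta, whose secreted product then turns on a second set of genes through its receptor. Alveolar macrophages live under GM-CSF and PPAR gamma, take up surfactant lipid and clear dying cells, and many genes of that resting programme are known to be repressed during an inflammatory response.

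The values were log2 levels from Affymetrix Mouse Gene 2.1 ST arrays after RMA, the authors' normalization. A level below 5 was taken as dim. Both group means were dim for 15235 genes, and changes of dim genes may be understated on this scale. Medians of the 12 arrays lay between 4.42 and 4.46. The SD over genes was lowest on the LPS array of clone 75 (2.46) and between 2.50 and 2.54 on the other 11 arrays. Of 11 measured macrophage markers 9 reached a level of 6 in a group. Cd68 was 12.31 with LPS and 12.61 unstimulated, and Csf1r was 10.89 and 11.20 in the same order. Itgam (4.67 and 4.97) and C1qb (4.59 and 4.56) stayed dim. Of the 11 markers 2 rose (Adgre1 and Fcgr1) and 3 fell (Tyrobp, Mertk and C1qa). Of 10 measured markers of alveolar macrophages only Itgax, Pparg and Cd9 reached 6 as a group mean. Marco (3.88 with LPS and 4.06 unstimulated), Siglecf (3.84 and 3.70), Car4 (3.60 and 3.52) and Chil3 (3.26 and 2.99) stayed dim, so these genes did not show the labelled origin. Fabp4, Fabp5 and Mrc1 reached 6 in clone 29 alone. There they were 7.41, 6.72 and 5.52 with LPS and 6.16, 6.62 and 7.52 unstimulated. Fabp4 was the 1 alveolar marker that rose (0.82 ± 0.19, adjusted p = 0.0483), while Itgax and Pparg fell. No measured marker of neutrophils, monocytes and dendritic cells, mast cells, T and NK cells, B cells or epithelium reached 6 as a group mean. Among them 3 rose, the neutrophil markers Camp and S100a8 at dim levels and the monocyte marker Ly6c2, which has shared probes and was 5.30, 6.95 and 4.77 with LPS and 4.29, 4.33 and 3.87 unstimulated in clones 7, 29 and 75. The summed linear level of 8 neutrophil markers was 132 to 136 with LPS and 102 to 118 unstimulated, and that of 6 monocyte and dendritic cell markers was 128 to 218 and 115 to 134 in the same order. Of 8 fibroblast markers Col1a1 alone reached 6 as a mean (8.27 with LPS and 7.92 unstimulated), and it has shared probes. Col1a2 (4.21 and 4.08) and Col3a1 (3.89 and 3.92) were dim. Dcn and Fbn1 rose, and the sum of the 8 was 353 to 681 with LPS against 328 to 339. Of 6 endothelial markers Vwf alone reached 6 and it fell, with sums of 125 to 182 against 181 to 263. The arrays came from single clones of a macrophage line, and whether other cells were present was not tested. In bulk RNA, fewer cells of a type and less RNA per cell cannot be told apart.

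LPS changed 1950 of the 27296 genes at an adjusted p under 0.05 (7.14% of genes tested), with a limma fit that had the clone as a block. Of these, 916 rose (3.36%) and 1034 fell (3.79%). The rises were larger: their median change was 0.84 on the log2 scale and 126 reached 2 in size, while the falls had a median of −0.71 and 17 reached 2 in size. The median change of all genes was −0.01. All 1950 moved the same way in each of the 3 clones. All 3 LPS arrays lay above all 3 unstimulated arrays for 878 of the 916 genes that rose, against 11.8% of all genes, and below them for 979 of the 1034 that fell, against 13.3% of all genes. The genes were called on these same arrays, so the shared direction and the separation follow largely from the call and add no support to it. Another 25346 genes did not pass, although 5646 genes in all had an unadjusted p under 0.05. In simulated data of this design on 27296 genes, 67 genes were changed by 1 and 67 by 0.5 on the log2 scale. Of these, 98.5% and 26.9% were recovered. Far fewer genes were changed there than were called here, and the noise was drawn independently for each gene. The rates may therefore not hold for the measured arrays. Of the genes that rose, 781 were protein coding and 233 were dim without LPS. The counts depended on the number of clones: with clones 29 and 75 alone 246 genes rose and 93 fell, with clones 7 and 75 alone 297 and 189, and with clones 7 and 29 alone 184 and 66.

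Il1a, the gene of interleukin-1 alpha, rose most. Its level was 12.05, 10.49 and 11.20 in clones 7, 29 and 75 with LPS, and 3.38, 3.10 and 3.77 without it. All LPS arrays stood far above all unstimulated ones, which were dim, and clone 7 was the highest. The change was 7.83 ± 0.25 (SE of the fit, moderated over all genes, n = 3 clones), or 228-fold, with adjusted p = 6.16e-05. The gene lies on chromosome 2 between 129299610 and 129309972 (mm10, minus strand). The neighbouring Il1b (129364570 to 129371139) encodes interleukin-1 beta and reached 12.25, 11.51 and 11.69 with LPS, against 4.91, 4.32 and 4.16 unstimulated. Its 3 clone changes of 7.34, 7.19 and 7.53 were nearly equal, and the 164-fold rise had the smallest adjusted p of the 15 genes that rose most (3.46e-06). Behind both came Cybb, the membrane subunit of the phagocyte NADPH oxidase (6.24 ± 0.17), Nos2, the inducible nitric oxide synthase (6.21 ± 0.25), and Il6 (6.05 ± 0.23).

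**Figure D1:**
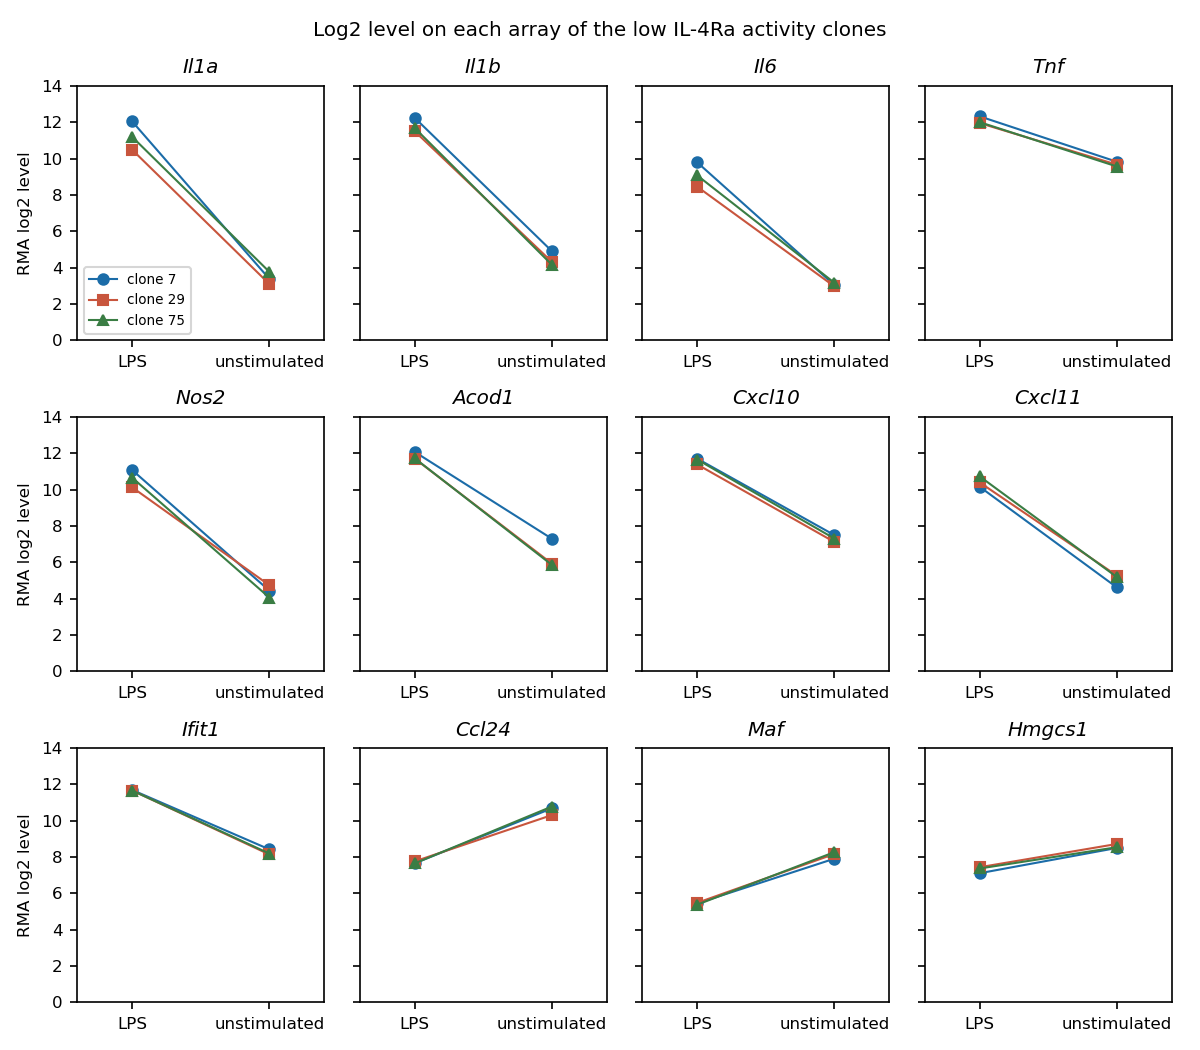
RMA log2 level (vertical axes) of 12 genes on each array of the low clones, with LPS at the left and unstimulated at the right of each panel. A line joins both arrays of a clone. LPS arrays lie above unstimulated arrays in the first 9 panels and below them for Ccl24, Maf and Hmgcs1, with no overlap in any panel.

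Of 31 measured genes of LPS recognition 7 rose (22.6%) and 2 fell (6.45%), and their median change was −0.05. Over all genes 3.36% rose and 3.79% fell. Over genes with a mean level of at least 5 in a group 6.83% rose and 7.97% fell. Only 3 of the 31 were dim in both groups, and their share that fell is not above that of the brighter genes. Both pairs of shares are the background for the lists below. Tlr4 itself was 7.71, 7.92 and 7.62 with LPS against 8.54, 8.52 and 8.33 unstimulated in clones 7, 29 and 75. All LPS arrays were lower, a change of −0.71 ± 0.11 (adjusted p = 0.0113). Its partners did not pass: Ly96, which encodes MD-2, changed by 0.05 ± 0.10 and Cd14 by −0.24 ± 0.11. Among other Toll-like receptors 3 rose. Tlr2, the receptor for bacterial lipopeptides, rose by 2.07 ± 0.15, Tlr3, for double-stranded RNA, by 1.84 ± 0.13, and Tlr9, for CpG DNA, by 0.99 ± 0.17. Tlr13, for bacterial ribosomal RNA, fell by 0.69. Ikbke, a kinase that acts beside TBK1 upstream of IRF3, rose by 2.18 ± 0.20.

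Of 29 feedback genes, which limit the pathway, 14 rose, 15 did not pass and none fell, with a median change of 0.44. Irak3, a kinase-dead relative of the IRAK kinases, was 10.53, 10.18 and 10.12 with LPS against 7.90, 7.87 and 7.43 unstimulated in the 3 clones (2.54 ± 0.12). Tnfaip3, the ubiquitin editor A20, rose by 2.10 ± 0.11, with clone changes of 2.04, 2.21 and 2.06. The RNases Zc3h12a (2.24 ± 0.13) and Zc3h12c (2.14 ± 0.12), which destroy cytokine transcripts, and the adaptor Traf1 (2.53 ± 0.14) rose as well. Among the IkB proteins, Nfkbie rose by 2.01, Nfkbia by 1.63 and Nfkbib by 0.64. Atf3, a repressor, was already at 10.83 to 11.07 without LPS and did not pass (0.32 ± 0.10, adjusted p = 0.135).

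Of 20 genes of the interleukin-1 family and the inflammasome, 12 rose and 1 fell (median change 0.59). Il1rn, which encodes the receptor antagonist, rose by 0.91 ± 0.18, far less than the agonists. Il1f6 and Il1f9, the genes of IL-36 alpha and IL-36 gamma, rose by 3.03 ± 0.49 and 2.47 ± 0.49. Nlrp3, the inflammasome sensor, reached 8.63, 8.02 and 8.74 with LPS against 6.77, 6.83 and 7.12 unstimulated (1.56 ± 0.15), and no LPS array overlapped an unstimulated one. The DNA sensor Aim2 was the member that fell (−0.51 ± 0.11, adjusted p = 0.0366).

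Secreted cytokines outside that family rose in 9 of 28 measured members and fell in 1, and 14 of the 28 were dim in both groups. Tnf, the gene of tumour necrosis factor, was 12.33, 11.96 and 12.01 with LPS. Without it the level was already 9.83, 9.67 and 9.57, so its change of 2.41 ± 0.11 started from a bright level. Il6 in contrast was 9.80, 8.46 and 9.08 with LPS against 3.04, 2.97 and 3.17 unstimulated. Both genes separated the groups fully, and clone 7 had the highest LPS level of each. Ebi3, a subunit of IL-27 and IL-35, rose by 2.28 ± 0.11, the granulocyte factor Csf3 by 1.81 ± 0.25, and Tnfsf15 by 1.30 ± 0.13. The inhibitory cytokine Il10 moved the other way: it was 4.83, 5.43 and 5.08 with LPS and 5.43, 6.64 and 5.84 unstimulated. It was lower in each clone, with an overlap between groups because clones differ in their baseline, and fell by 0.86 (adjusted p = 0.0162).

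Of 24 chemokine genes 13 rose and 2 fell, and their median change was 0.81. Cxcl11 and Cxcl10, ligands of CXCR3 that draw activated T cells, rose most. Cxcl11 was 10.16, 10.40 and 10.73 with LPS against 4.62, 5.27 and 5.19 unstimulated (5.40 ± 0.13, adjusted p = 2.23e-05). The RefSeq table used here classes it as a transcribed pseudogene. Cxcl10 was 11.71, 11.39 and 11.66 against 7.50, 7.12 and 7.31, and its change was nearly the same in every clone (4.21, 4.27 and 4.35). Of the neutrophil attractants Cxcl2 rose by 3.99 ± 0.16. Cxcl3 rose by 1.00 ± 0.12 but was dim in both groups, at 3.77 with LPS and 2.77 unstimulated. Cxcl1 was also dim (3.84 and 3.76) and did not pass (0.08 ± 0.12, adjusted p = 0.768). Ccl5 rose by 2.06 ± 0.18. Ccl24, the eotaxin-2 gene that IL-4 is known to induce, fell most of the 24: it was 7.66, 7.76 and 7.65 with LPS and 10.68, 10.31 and 10.78 unstimulated (−2.90 ± 0.14, 7.46-fold lower). The platelet-type chemokine Ppbp fell by 1.17.

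Promoter letters are shown for genes whose transcripts moved in this way. Here and below, only genes whose promoters hold the letters searched are printed. Of the 27296 genes, 15159 had exactly 1 promoter in the RefSeq table (GRCm38.p6, the same coordinates as mm10), which runs from 250 bases before to 50 bases after the start. The kappaB letters searched were GGGNNTTTCC on both strands. They were present in 1.52% of all 15159 promoters, in 3.93% of the 534 promoters of genes that rose and in 1.03% of the 584 of genes that fell. Among chemokine genes 4 of 16 promoters held them, and among feedback inhibitors 3 of 20. The promoters of Il1a, Il1b and Tnf, which also rose, did not hold them. Below, the stretch before the start is written on the gene's strand, and capitals mark the kappaB letters. For Nfkbia the match is on the other strand, so its capitals are the reverse complement. The positions are −97 to −88 and −78 to −69 for Cxcl2 (chr5:90903762-90903870, plus strand), −44 to −35 for Il6 (chr5:30013030-30013113, plus strand) and −29 to −20 for Nfkbia (chr12:55492648-55492716, minus strand).
Cxcl2: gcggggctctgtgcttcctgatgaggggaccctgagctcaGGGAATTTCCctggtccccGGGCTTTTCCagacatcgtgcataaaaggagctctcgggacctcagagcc
Il6: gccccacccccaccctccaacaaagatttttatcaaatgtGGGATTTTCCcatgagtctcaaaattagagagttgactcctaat
Nfkbia: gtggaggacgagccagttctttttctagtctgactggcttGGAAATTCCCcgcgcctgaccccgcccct

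Interferon-induced genes rose broadly. Of 40 interferon-induced effector genes 38 rose and none fell (95% against 3.36% of all genes), and their median change was 1.97. The called changes ran between 0.64 and 4.95. Leaving out any 1 low clone from the fit of all 12 arrays left 36 to 39 of the 40 called. That fit was chosen after seeing the data and takes part of its spread from the high clones. In the 6-array fit, leaving out a clone left 248 to 482 of all 1950 called genes called. Gbp2, a guanylate-binding GTPase that attacks pathogen vacuoles, was 10.65, 10.13 and 10.64 with LPS and 5.68, 5.61 and 5.27 unstimulated. Ifit1, which binds foreign RNA ends, was 11.69, 11.66 and 11.66 with LPS against 8.42, 8.14 and 8.19. The 3 clones thus reached almost the same LPS level (11.67 ± 0.02, SD, n = 3), and the change was 3.42 ± 0.11. Gbp5 (4.14 ± 0.19), Mx2 (3.45 ± 0.31) and Gbp3 (3.35 ± 0.16) were the other leading members, and Ifit3 and Ifit3b share probes with near-identical copies. Samhd1 and Ifi27l2a were the 2 members that did not pass.

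Sensors and transcription factors of the interferon pathway rose in 14 of 29 measured members and fell in 1. The nucleic acid sensor Zbp1 was 11.10, 10.76 and 10.96 with LPS against 7.34, 6.04 and 6.03 unstimulated (4.47 ± 0.22). Ifih1, the RNA sensor MDA5, rose by 2.47 ± 0.13, the transcription factor Irf7 by 2.39 ± 0.14, Stat2 by 1.88 ± 0.11, the kinase Jak2 by 1.76 ± 0.12 and Irf1 by 1.06 ± 0.15. Irf3, which TRIF signalling activates by phosphorylation, did not pass (−0.35 ± 0.11, adjusted p = 0.124), nor did Irf2 (−0.14 ± 0.10). Stat5a fell by 0.50.

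**Figure D2:**
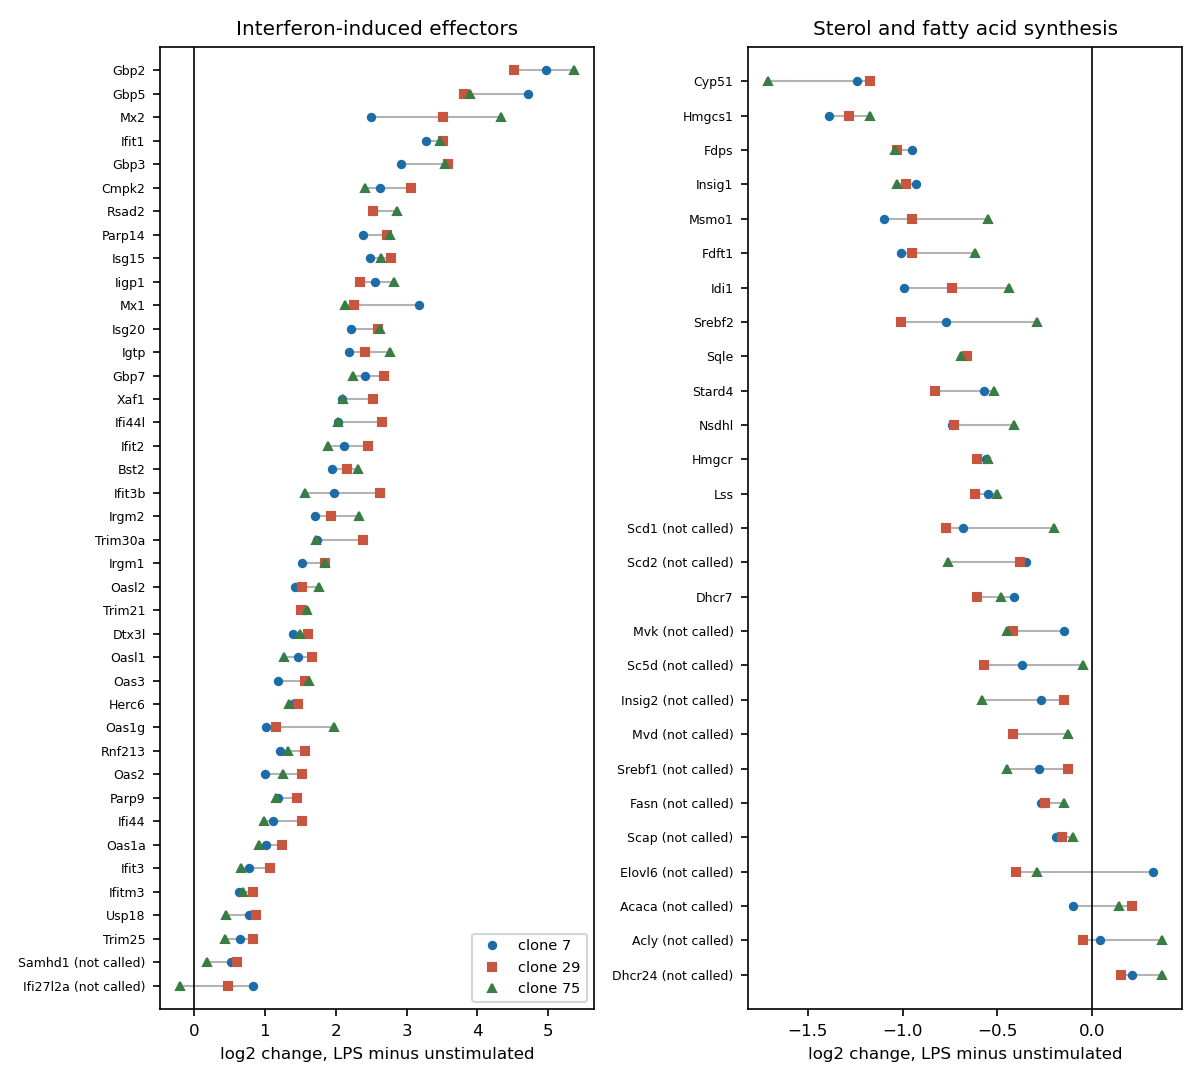
Log2 change (LPS minus unstimulated, horizontal axes) of 40 interferon-induced effector genes and 27 of the 28 genes of sterol and fatty acid synthesis, with 1 point per low clone and a grey line over their range. The 38 called effectors lie right of 0 in each clone, and the 14 called sterol genes shown lie left of 0 in each clone.

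The interferon-stimulated response element was searched as GAAANNGAAA on both strands. It stood in 3.46% of the 15159 promoters, in 12.7% of those of genes that rose, in 20.5% of those that rose by at least 1 and in 3.25% of those that fell. Among the interferon-induced effectors with a promoter 17 of 28 held it (60.7%). The STAT letters TTCNNNGAA, whose last 3 bases can coincide with the first of the element, were in 8.04% of all promoters and in 8 of those 28. The AP-1 letters TGANTCA, also searched, were in 7.4% of all promoters and likewise in 8 of those 28. They stood in 16.6% of promoters of genes that rose by at least 1 and in 13.4% of those that fell by at least 1. Irf7, which also rose, had no match of the interferon element. The lines show 3 of the genes, with the element in capitals on either strand: Isg15, a ubiquitin-like protein added after its values were seen (chr4:156200835-156200936, minus strand, 3 overlapping matches between −78 and −57), Ifit1 (chr19:34640745-34640853, plus strand, matches from −104 to −95 and −85 to −76) and Cxcl10 (chr5:92349053-92349139, minus strand, from −213 to −204).
Isg15: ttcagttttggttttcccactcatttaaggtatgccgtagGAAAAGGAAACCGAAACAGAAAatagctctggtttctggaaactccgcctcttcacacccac
Ifit1: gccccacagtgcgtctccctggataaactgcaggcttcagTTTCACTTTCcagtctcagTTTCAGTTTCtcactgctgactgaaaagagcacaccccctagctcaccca
Cxcl10: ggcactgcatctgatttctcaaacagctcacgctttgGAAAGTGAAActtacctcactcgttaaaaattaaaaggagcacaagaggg

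The Isg15 transcript itself was 8.14, 8.08 and 7.76 with LPS against 5.66, 5.30 and 5.12 unstimulated, a change of 2.63 ± 0.11. A match of letters is a description of the sequence and shows no binding.

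Peptide loading for MHC class I rose in 13 of 18 measured genes, with none that fell and a median change of 0.81. Tap1, a subunit of the peptide transporter, was 10.79, 10.58 and 10.93 with LPS and 9.24, 8.82 and 8.63 unstimulated (1.87 ± 0.16). H2-T23 (1.48 ± 0.15), the immunoproteasome subunits Psmb10 (1.35 ± 0.12) and Psmb9 (1.26 ± 0.11) and the class I transactivator Nlrc5 (1.17 ± 0.12) followed. B2m, the light chain, was bright in both groups and did not pass (−0.03 ± 0.17). Of 9 measured MHC class II genes none rose and H2-DMb2 fell by 0.57. Their median change was 0.38, and for 4 of the 9 all LPS arrays lay above all unstimulated ones (11.8% of all genes). The transactivator Ciita was dim (0.46 ± 0.17, adjusted p = 0.184).

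Co-stimulatory genes were split. Cd40, the receptor for the CD40 ligand of T cells, was 10.01, 9.91 and 9.63 with LPS against 6.00, 5.84 and 5.78 unstimulated (3.98 ± 0.11). Icosl rose by 2.15 ± 0.16, the checkpoint ligand Cd274 (PD-L1) by 1.70 ± 0.10 and Cd80 by 1.18 ± 0.13, while Cd86 did not pass (0.40 ± 0.11, adjusted p = 0.0776). Both members that fell are inhibitory receptors or ligands: Vsir, which encodes VISTA, was 7.48, 8.13 and 7.58 with LPS against 9.96, 9.84 and 9.73 (−2.11 ± 0.16), and Havcr2 fell by 0.94. In all, 6 of 19 rose and 2 fell.

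Antimicrobial metabolism rose in 9 of 22 genes and fell in none. Nos2 was 11.08, 10.13 and 10.66 with LPS and 4.44, 4.74 and 4.06 unstimulated. Slc7a2, which imports its substrate arginine, rose by 2.49 ± 0.12 and Gch1, which makes its cofactor, by 1.06 ± 0.15, whereas Ass1, which regenerates arginine, did not pass (0.60 ± 0.15, adjusted p = 0.0709). Cybb was 11.31, 10.40 and 11.11 with LPS against 5.02, 4.63 and 4.45. Acod1, the enzyme that makes itaconate, was 12.08, 11.71 and 11.73 with LPS. Its unstimulated level was 7.30 in clone 7 and 5.93 and 5.86 in clones 29 and 75, so that clone 7 showed the smallest change (4.78 against 5.78 and 5.87). Sod2 rose by 1.58 ± 0.10.

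Among enzymes of lipid mediators, inducible prostaglandin enzymes rose: Ptgs2 (COX-2) was 11.70, 11.12 and 11.32 with LPS and 8.95, 8.44 and 9.53 unstimulated (2.41 ± 0.20), and Ptges rose by 1.55 ± 0.17. The constitutive Ptgs1 (COX-1) fell by 0.93 and the thromboxane synthase Tbxas1 fell by 1.18. Alox5, which opens the leukotriene branch, was 4.54, 5.90 and 3.85 with LPS and 6.29, 7.63 and 5.65 unstimulated. The groups overlapped because clone 29 was high in both conditions, but the 3 changes were almost equal (−1.75, −1.73 and −1.80), and the fit with the clone as a block gave −1.76 ± 0.10. Ltc4s of the same branch fell by 0.52 at a dim level. Of 19 members 4 rose and 4 fell.

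Acute phase and metal genes rose in 7 of 21 measured members. Saa3, an apolipoprotein of the acute phase, was 12.87, 12.78 and 12.31 with LPS and 8.11, 6.33 and 7.05 unstimulated (5.49 ± 0.29), and Saa1 stayed dim (0.30 ± 0.16). Lcn2, which binds bacterial iron carriers, rose by 3.30 ± 0.20 and Hp, which binds free haemoglobin, by 2.31 ± 0.27. Slc40a1, the iron exporter ferroportin, fell by 1.01 (adjusted p = 0.012). Complement genes were mixed, with 4 that rose and 5 that fell of 21. Cfb of the alternative pathway was 9.54, 8.30 and 8.85 with LPS against 4.41, 4.66 and 4.79 (4.28 ± 0.26) and C3 rose by 1.62 ± 0.16. Of the classical pathway C1qc fell by 1.59 and C1qa fell by 1.22, and C1qb was dim and did not pass (0.03 ± 0.11).

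**Figure D3:**
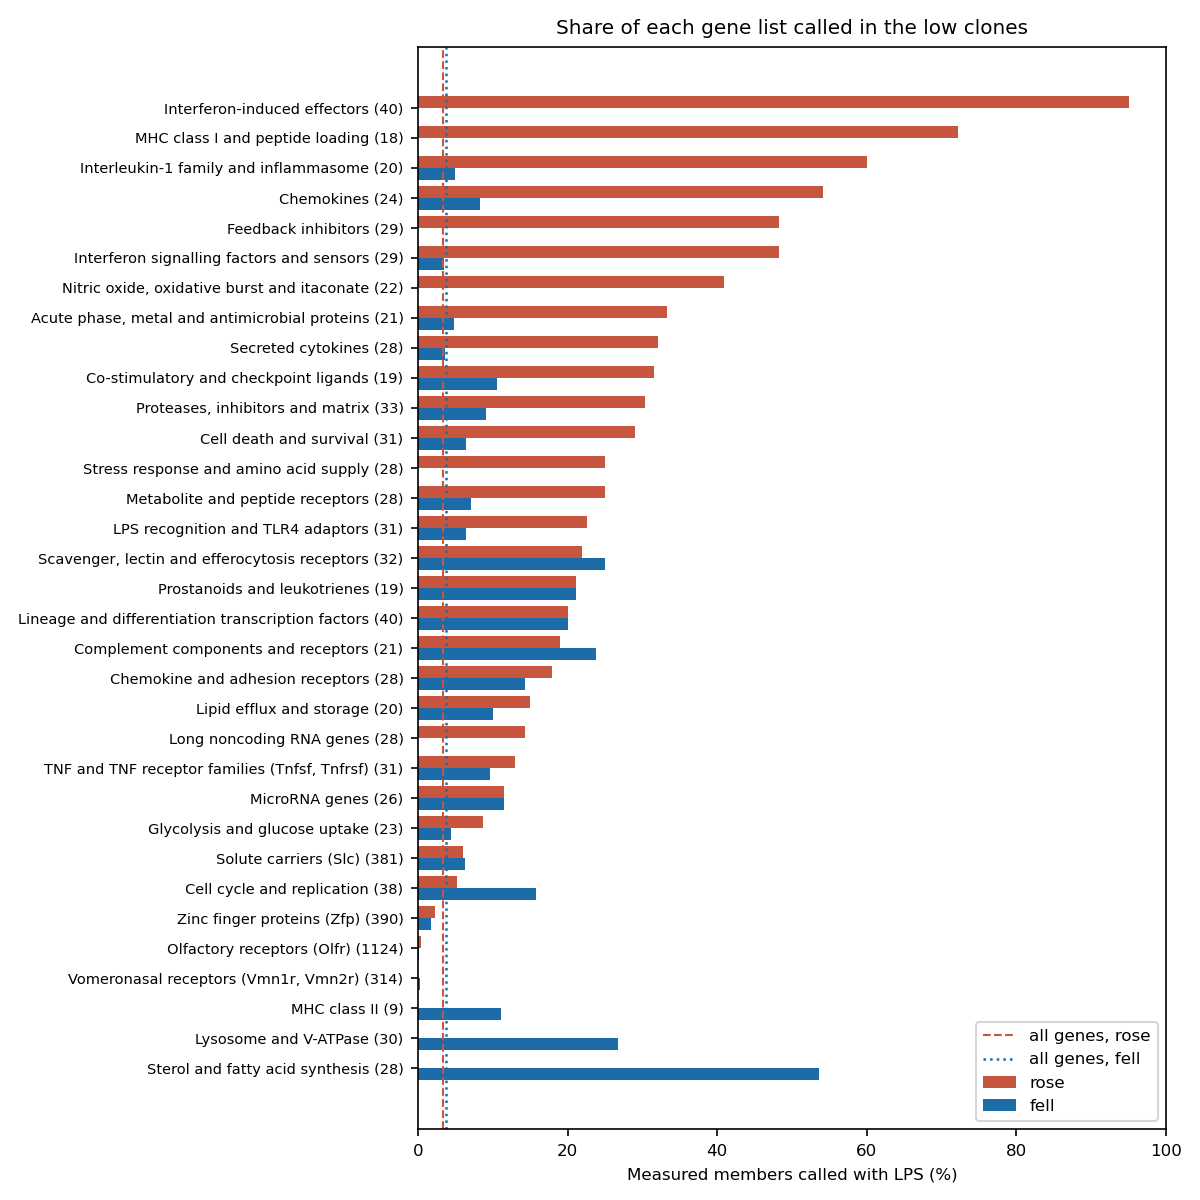
Share of the measured members of each gene list (percent, horizontal axis; number measured in brackets) that rose or fell with LPS in the low clones. The lines mark the shares over all genes tested, 3.36% that rose and 3.79% that fell. Interferon-induced effectors had the highest share that rose (95%) and sterol and fatty acid synthesis the highest share that fell (53.6%).

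Receptors on the cell surface also changed in both directions. Of 28 chemokine and adhesion receptors 5 rose (17.9%) and 4 fell (14.3%). Of 28 receptors for metabolites and peptides 7 rose (25%) and 2 fell (7.14%). Of genes with a mean level of at least 5 in a group 6.83% rose and 7.97% fell, and the last share of 7.14% was near that background. Ccrl2, an atypical receptor that presents chemerin, was 10.33, 9.71 and 9.68 with LPS against 6.37, 5.89 and 5.17 (4.10 ± 0.15). Gpr84, a receptor for medium-chain fatty acids, rose by 3.61 ± 0.15, Hcar2, the niacin receptor, by 3.16 ± 0.23, and the formyl peptide receptor Fpr2 by 2.23 ± 0.21. Icam1 rose by 1.90 ± 0.13 and the sialic acid lectin Siglec1 by 2.53 ± 0.17. Cxcr4 fell by 1.22, Itgax fell by 1.02, and Gpr183, the receptor for oxysterols, fell by 1.44. Of 32 scavenger, lectin and efferocytosis receptors 7 rose (21.9%) and 8 fell (25%). Those that fell included genes for clearing dead cells: the bridging ligand Gas6 was 9.34, 9.85 and 9.76 with LPS against 11.45, 11.55 and 11.58 unstimulated (−1.88 ± 0.12), and its receptor Mertk fell by 1.08. Those that rose included the C-type lectins Clec12a (1.13 ± 0.12), Clec4d (0.90 ± 0.13), Clec4e (0.70 ± 0.11), Clec4a1 (0.64 ± 0.12) and Clec4n (0.52 ± 0.12). Of the Fc receptors Fcgr1 rose by 1.17 ± 0.18 and Fcgr4 by 0.59 ± 0.10, and Fcgr3 fell by 1.13.

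Among proteases, inhibitors and matrix genes 10 of 33 rose and 3 fell. The matrix metalloproteinase Mmp3 was 9.07, 6.88 and 7.37 with LPS and 3.46, 3.15 and 3.28 unstimulated, and Mmp9 rose by 3.59 ± 0.16. Slpi, an inhibitor of neutrophil elastase, was 10.31, 8.28 and 10.02 with LPS against 7.01, 5.20 and 6.06, so that clone 29 was lowest in both conditions (3.45 ± 0.18). Serpinb1a, which inhibits neutrophil proteases within cells, was 7.56, 8.02 and 7.39 with LPS against 10.36, 9.91 and 10.14 (−2.48 ± 0.19). The urokinase gene Plau fell by 1.59. Of 31 genes of cell death and survival 9 rose (29%), led by the death receptor Fas (2.93 ± 0.11), Birc3 (1.17 ± 0.15) and Ripk2 (1.03 ± 0.14). Bcl2l1 and Mcl1, which protect from apoptosis, fell by 0.65 and 0.50. Those that fell were 6.45% of the list, against 7.97% of genes with a mean level of at least 5 in a group.

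Transcription factors moved in both directions. Of 40 lineage factors measured 8 moved each way. Maf, which acts in resident macrophages, was 5.45, 5.48 and 5.38 with LPS and 7.91, 8.17 and 8.27 unstimulated (−2.68 ± 0.12, 6.41-fold lower). Gm15655 lies within the bounds of Maf on the other strand of chromosome 8 and changed by −2.56 ± 0.13. The labels do not say whether its probes read only its own strand. Pparg, which alveolar macrophages need for their lipid handling, was 4.95, 5.12 and 4.91 against 6.09, 6.75 and 6.25 (−1.37 ± 0.13). Id1 fell by 1.22 and Nr4a1 fell by 0.99. Nfkb1 rose by 1.49 ± 0.11, Cebpb by 0.97 ± 0.12 and Cebpd by 0.80 ± 0.11.

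The largest fall of all was that of Rnase4, a secreted ribonuclease, with 3.42, 4.26 and 3.88 on the LPS arrays and 6.94, 6.95 and 7.41 on the unstimulated ones (−3.25 ± 0.18, 9.49-fold lower, chromosome 14, 51091077 to 51106151). Its LPS level was dim, so the fold may understate the fall. Sesn1, a stress-induced inhibitor of growth signalling, fell by 2.38. Gpr157, St6gal1, Slc9a9, Mgst3 and Emp1 were further named genes among the 15 largest falls, with changes between −2.26 and −2.03. Lifr, the receptor of leukaemia inhibitory factor, changed by −2.16, −2.26 and −2.27 in clones 7, 29 and 75, although its unstimulated level ran from 6.43 in clone 7 to 7.39 in clone 75.

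Many genes of sterol synthesis fell. Of 28 genes of sterol and fatty acid synthesis 15 fell and none rose (53.6% against 3.79% of all genes), with a median change of −0.55, and for 24 of the 28 every LPS array lay below every unstimulated one (13.3% of all genes). The called falls lay between −0.50 and −1.37. Leaving out any 1 low clone from the fit of all 12 arrays, which was chosen after seeing the data, left 13 to 16 called. In the high clones 10 of the 28 fell, with a median of −0.41. Cyp51, which demethylates lanosterol, was 6.95, 7.24 and 6.60 with LPS and 8.19, 8.41 and 8.31 unstimulated (−1.37 ± 0.14). Hmgcs1, at the entry of the mevalonate pathway, was 7.11, 7.44 and 7.37 against 8.50, 8.72 and 8.54 (−1.28 ± 0.11). Fdps changed by −1.01 ± 0.10 and Insig1 by −0.98 ± 0.10. Srebf2, the master regulator of the pathway, fell by 0.69 (adjusted p = 0.0459), with a change of −0.29 in clone 75. Srebf1 and Scap did not pass (−0.29 ± 0.11 and −0.15 ± 0.10). The 13 members that did not pass included the fatty acid synthesis genes Fasn, Acaca and Acly, and the last 2 had no common direction in the 3 clones. The sterol regulatory letters TCACNCCAC were in 1.19% of the 15159 promoters and in 1 of the 15 of this list that had one, Hmgcs1, where capitals mark them from −137 to −129 (chr13:119690174-119690262, plus strand).
Hmgcs1: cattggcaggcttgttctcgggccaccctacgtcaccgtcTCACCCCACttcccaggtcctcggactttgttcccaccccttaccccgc

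In lipid efflux and storage 3 of 20 genes rose (15%) and 2 fell (10%), against 6.83% and 7.97% of genes with a mean level of at least 5 in a group. Ch25h, which makes the oxysterol 25-hydroxycholesterol known to restrain SREBP processing, was 10.69, 10.58 and 10.57 with LPS against 8.11, 8.95 and 8.30 unstimulated (2.16 ± 0.18). The exporters Abca1 (0.11 ± 0.10) and Abcg1 (0.09 ± 0.11) did not pass. Lysosomal genes fell in 8 of 30 and rose in none, among them the proton pump subunits Atp6v0a1 (−1.88 ± 0.21) and Atp6v0d2 (−1.71 ± 0.12).

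Of 23 measured glycolysis genes 2 rose (8.7%) and 1 fell (4.35%), against 6.83% and 7.97% of genes with a mean level of at least 5 in a group. Slc2a6 rose by 1.10 ± 0.10 and Hk2 by 0.67 ± 0.11, and Pdk1 fell by 0.58. The main glucose transporter Slc2a1 was bright in both groups (0.08 ± 0.11, adjusted p = 0.757). Stress genes rose in 7 of 28 and fell in none. Slc7a11, the cystine importer, was 10.90, 10.47 and 10.78 with LPS against 8.93, 8.50 and 8.24 (2.16 ± 0.14), and Ddit3 (CHOP) rose by 1.36 ± 0.11. Of 38 cell cycle genes 6 fell (15.8%) and 2 rose (5.26%), the last share being near that of all genes (3.36%). Ccnd1, the cyclin of early G1, changed by −1.81, −0.84 and −1.46 in clones 7, 29 and 75 (−1.37 ± 0.18), and the proliferation marker Mki67 fell by 0.79. The replication licensing genes Cdc6 (0.88 ± 0.12) and Mcm10 (0.67 ± 0.10) were those that rose. Families were also taken by symbol, to be read against the 3.36% of all genes that rose and 3.79% that fell, or 6.83% and 7.97% of the 12061 genes with a mean level of at least 5 in a group: of 1124 olfactory receptors 4 rose and 2 fell, of 390 Zfp genes 9 rose (2.31%) and 7 fell (1.79%), of 314 vomeronasal receptors 1 fell, of 31 members of the TNF and TNF receptor families 4 rose and 3 fell, and of 381 solute carriers 23 rose (6.04%) and 24 fell (6.3%).

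Over all genes tested, 43 of those that rose and 28 of those that fell were long noncoding RNAs in RefSeq, and 12 and 11 were microRNAs. The genes tested of each kind were not counted, so no share can be given. Of a chosen list of 28 long noncoding RNA genes 4 rose (14.3% against 3.36% of all genes) and none fell. Mir155hg, the host transcript of miR-155, was 7.71, 6.82 and 6.97 with LPS against 5.08, 4.69 and 4.86 unstimulated (2.29 ± 0.14), while the microRNA itself was not analysed here. Of a chosen list of 26 microRNA genes 3 rose and 3 fell (11.5% each, against 3.36% and 3.79% of all genes). Mir146 rose by 0.57 ± 0.13 at a dim level (adjusted p = 0.044), Mir222 rose by 0.61 ± 0.13 and Mir19a, which shares probes with other genes, by 0.76 ± 0.10. Mir27a fell by 0.77, Mir9-3 fell by 0.53 and Mir23b fell by 0.49. The array reads precursor sequence, so these values say nothing of mature miRNAs.

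Il4ra, the gene of the chain by which the clones are labelled, was 8.34, 8.87 and 7.83 with LPS and 7.49, 8.24 and 7.11 unstimulated in clones 7, 29 and 75, and it rose by 0.73 ± 0.11 (adjusted p = 0.01) with an overlap between the groups. Il2rg, the common gamma chain, was 7.43, 6.82 and 6.77 against 6.04, 4.91 and 4.69 (1.79 ± 0.15, adjusted p = 0.00118). Il13ra1, which pairs with IL-4Ra in the type II receptor, did not pass (0.28 ± 0.10, adjusted p = 0.18).

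The called genes moved one way in the 3 clones, but the size of the change varied. Across the 27296 genes, the changes of clones 7 and 29 correlated at 0.713, those of clones 7 and 75 at 0.618 and those of clones 29 and 75 at 0.589. Genes are not independent replicates, and each value rests on 1 array pair per clone. The SD of the changes was 0.49 in clone 75, against 0.412 in clone 7 and 0.403 in clone 29. Among the genes that rose, the largest change fell to clone 75 in 44.1%, to clone 29 in 28.3% and to clone 7 in 27.6%. The median range of the 3 changes was 0.37 for genes that rose, and it exceeded 1 for 56 of the 916. The widest ranges among 9908 genes with a level of 6 or more belonged to genes picked here for that range. The proteoglycan gene Dcn, a fibroblast marker, was 6.20, 4.22 and 7.50 with LPS against 3.41, 3.45 and 3.23 unstimulated. Its level was dim in every unstimulated array, and clone 29 stayed dim with LPS, with changes of 2.79, 0.77 and 4.27. Il1f6 changed by 4.37, 1.38 and 3.34 and Il1f9 by 4.10, 1.11 and 2.20, again with clone 29 the lowest. For Mmp3 the changes were 5.61, 3.73 and 4.09.

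**Figure D4:**
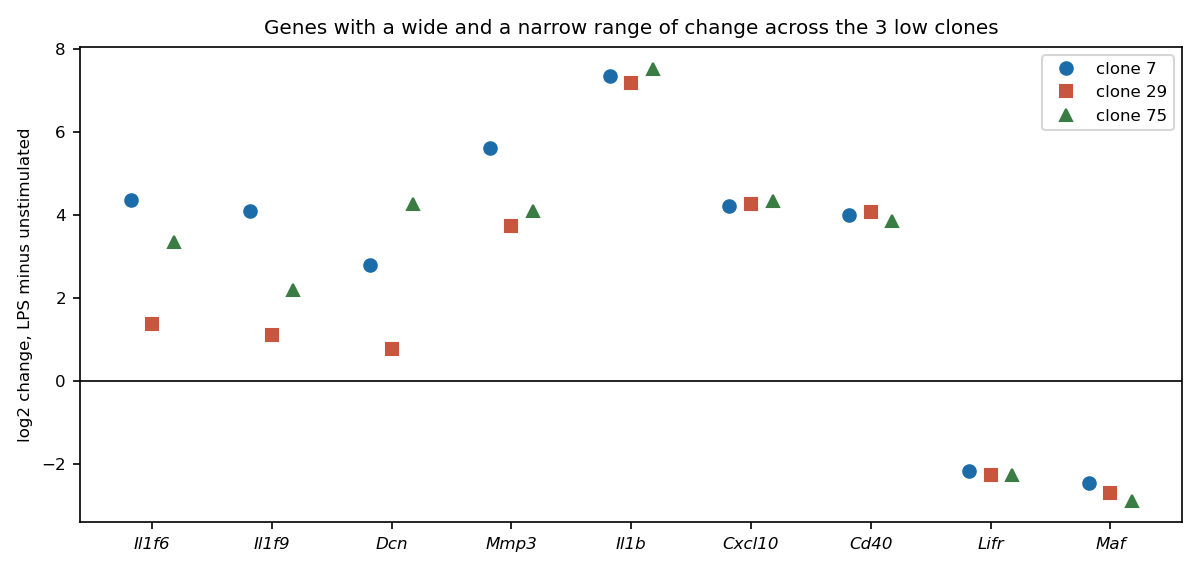
Log2 change (LPS minus unstimulated, vertical axis) of 9 genes in each low clone. Il1f6, Il1f9, Dcn and Mmp3 were picked for their wide range, and clone 29 is lowest in each of these 4, while Il1b, Cxcl10, Cd40, Lifr and Maf differ less between clones.

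The other 6 genes with the widest ranges had their lowest change in clone 75. Gm10722 was 7.39, 6.99 and 2.87 with LPS and 6.18, 6.33 and 7.93 unstimulated. The mitochondrial tRNA genes mt-Ts2 and mt-Ta, Snord72 and Rps24 changed by −2.16, −1.76, −0.96 and −1.40 in clone 75, and Syna by −3.09. The LPS array of clone 75 is also the one with the lowest SD of values, and its part in these ranges was not tested. None of these 6 genes passed the test of the LPS change.

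Low and high clones shared most of the response. In the high clones, fitted by themselves in the same way, 1555 genes passed (5.7% of those tested), of which 700 rose (2.56%) and 855 fell (3.13%). Of the 700 genes that rose in high clones 75.3% also rose in low clones, and of the 855 that fell 68.3% also fell. Of the 916 genes that rose in low clones 57.5% also rose in high clones, and none fell. Both sets of arrays are separate, so the genes called in high clones can be read in the low clones without having been chosen there. The 700 genes that rose in high clones had a median change of 0.88 in low and 0.78 in high clones, with 275 of them smaller in low clones, and the 855 that fell had medians of −0.68 in low and −0.63 in high clones. The 214 genes that rose by at least 1 in high clones had median changes of 2.01, 1.99 and 2.06 in clones 7, 29 and 75, against 1.47 in high clones. The 119 that fell by at least 1 had medians of −1.42, −1.20 and −1.36 in the low clones, against −1.25. Interferon-induced effectors had the larger estimate in low clones in 40 of 40 members, against 13418 of all 27296 genes. The difference passed for 2 of the 40, Ifit1 and Rsad2, and 28 had an unadjusted p under 0.05. Their median changes were 1.72, 2.04 and 1.87 (clones 7, 29 and 75), compared with 1.02, 0.96 and 1.21 (clones 69, 73 and 83). With LPS the median over their levels stood at 10.03 for low and 9.05 for high clones, and without LPS at 7.86 for low and 7.76 for high clones.

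Tested gene by gene, the difference of the responses passed for 15 genes (0.055% of those tested), 14 of them with a larger change in low clones (0.0513%) and 1 with a smaller one (0.00366%), while 2015 genes had an unadjusted p under 0.05. Without the clone as a block 3 passed, all larger in low clones. Leaving out any 1 of the 6 clones left 3 to 5 with a larger and 0 or 1 with a smaller change. The largest differences were those of Cxcl11 (5.40 in low against 2.26 in high clones), Acod1 (5.48 against 2.64) and AW112010, a noncoding gene (3.33 against 0.69). Their levels differed in kind. For Acod1 the LPS levels were close, 12.08, 11.71 and 11.73 in low clones and 12.14, 12.15 and 12.10 in high clones, and the unstimulated levels were apart: 7.30, 5.93 and 5.86 for the low against 9.32, 9.30 and 9.86 in high clones. For AW112010 the unstimulated levels were 3.74, 3.99 and 3.39 in low clones and 3.56, 3.12 and 3.32 in high clones, all dim, and the LPS levels were apart, with 7.02, 7.54 and 6.55 against 4.65, 3.63 and 3.78. Cxcl11 averaged 10.43 in low and 8.09 in high clones with LPS, and 5.03 in low and 5.83 in high clones without it. Rsad2, an antiviral enzyme added after its values were seen, was like Acod1: its LPS level averaged 10.51 in low and 10.30 in high clones, and its unstimulated levels were 8.11, 7.89 and 7.62 in low clones against 8.98, 9.55 and 8.92 in high clones. Gm12250 changed by 2.15 ± 0.19 in low clones and by 0.22, 0.01 and −0.12 in clones 69, 73 and 83.

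**Figure D5:**
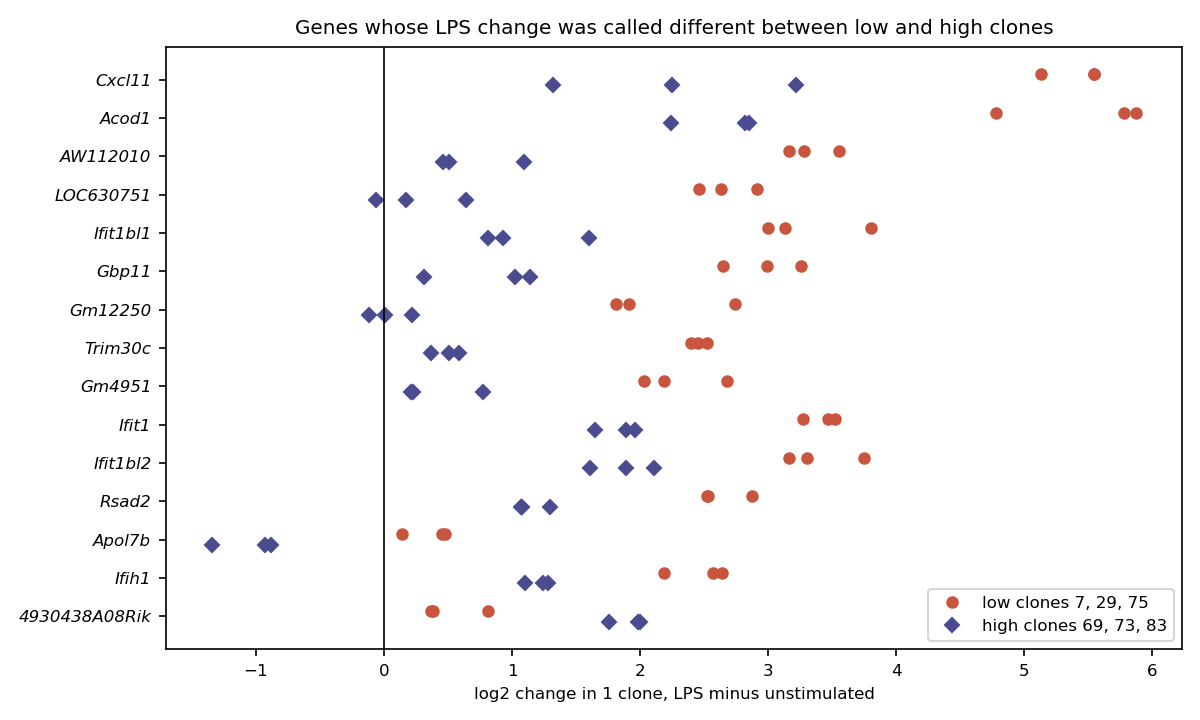
Log2 change (LPS minus unstimulated, horizontal axis) in each low clone (circles) and each high clone (diamonds) for the 15 genes whose LPS change was called different. Low clones lie right of high clones for the upper 14 genes and left of them for 4930438A08Rik.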

How the data were processed

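Total RNA of 12 arrays was hybridised to Affymetrix Mouse Gene 2.1 ST arrays. The deposited log2 values had been made by the authors with RMA at the transcript cluster level, per the file headers and, for Affymetrix Expression Console (version not stated), per the submitters' processing notes. The annotation, NetAffx build 34 on mm10, came from the same workbook, and the deposited value table held the same numbers (largest difference 0). Of 33793 main-category features 29294 had a symbol. Symbols were updated through RefSeq gene records where an identifier matched (1885 changed), and 1 feature was used per gene, which gave 27296 genes, 1971 of them with probes that may bind other transcripts.

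LPS was tested in the 6 low-clone arrays with limma 3.58.1 in R 4.3.3, with the clone as a block and Benjamini-Hochberg adjustment over all genes at 0.05. The spread rested on 2 residual degrees of freedom, moderated by a prior of 4.72. The difference of responses, low minus high clones, used all 12 arrays with the same block. Arrays of a clone are paired because the labels name the clone. Deviations from the group means correlated at 0.226, 0.195 and 0.1 between both arrays of clones 7, 29 and 75. A separate fit of the 6 high-clone arrays followed the same model. The number of arrays limits the precision, and the scripts were tested on simulated data, in which 12 of 162 calls were false.

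The genes, lists and motifs were chosen with earlier results of these data known. Named genes were the 15 largest rises and falls called, in each of 33 lists up to 5 called members of largest size, those against the majority and the first 3, the IL-4 receptor genes with Tlr4 and Tnf, the 10 widest clone ranges, the 10 largest called differences and the microRNA genes called. Marker genes and others outside this rule were added after their values were seen. Alternatives covered the block, the arrays in the fit, moderation, scaling, dim genes, features, shared probes, the size of change, the methods' t-test on linear values and leaving out each clone. The text sheet of the workbook was not used, and a few genes counted in the lists are not reported here by name.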

Additional observations from a re-analysis of the deposited data

Results flagged for a closer look

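The LPS change of 15 genes differed between low and high clones by the test of the difference itself (limma, adjusted p under 0.05, 3 clones each). The difference, low minus high, was 3.14 for Cxcl11 and 2.84 for Acod1. Next came AW112010 (2.64), LOC630751 (2.42), Ifit1bl1 (2.20), Gbp11 (2.14) and Gm12250 (2.12). Trim30c (1.97), Gm4951 (1.90), Ifit1 (1.59), Ifit1bl2 (1.53) and Rsad2 (1.49) followed, and Ifih1, which encodes the RNA sensor MDA5, had the smallest called difference in this direction, 1.26. Apol7b differed by 1.41, but its change in low clones was 0.36 and did not pass, while it averaged 3.99 with LPS and 5.04 unstimulated in high clones. 4930438A08Rik was the 1 gene with a smaller change in low clones (−1.39). LOC630751 and Apol7b carry probes that may bind other transcripts. In high clones the levels of AW112010, LOC630751, Gbp11, Gm12250, Trim30c and Gm4951 averaged under 5 in both conditions.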

How the results depend on the processing

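Each of the 1950 called genes that could be tested kept its direction under every alternative, but this was largely fixed in advance. The arrays are balanced, so the block, the moderation and the arrays in the fit leave the estimated change as it is. All 1950 moved one way in each low clone, so leaving out a clone could not reverse them. The count of genes that rose stayed within 1.5 times of 916 and that of genes that fell within 1.5 times of 1034, other than as follows. With all 12 arrays and the clone as a block 1654 fell, and without dim genes 1627 fell. A change of at least 1 in size left 366 that rose and 235 that fell. The methods' t-test on linear values gave 206 and 240 after adjustment, with 4736 genes at an unadjusted p under 0.05. Leaving out 1 low clone gave 184 to 297 that rose and 66 to 189 that fell in the 6-array fit, which has fewer samples by construction. In the fit of all 12 arrays with the block, an alternative chosen after seeing the data, it gave 780 to 902 that rose and 892 to 1094 that fell. Some lists lost calls in that fit. The interleukin-1 family had 8 to 9 that rose (12 in the main fit) and lysosomal genes 5 to 8 that fell (8). MicroRNA genes had 0 to 2 that fell (3). Other lists did not, such as the feedback inhibitors, with 14 that rose throughout. The 217 named genes followed here were all called except Il13ra1. Of them, 89 to 133 lost their call when a clone was left out of the 6-array fit, and 23 to 34 in the 12-array fit. For the difference of responses, 14 genes with a larger and 1 with a smaller change in low clones became 3 and 0 without the replicate block, and 40 and 2 with a robust intensity trend. Without dim genes 2 had a smaller change. Leaving out 1 of the 6 clones gave 3 to 5 larger and 0 to 1 smaller. In these cases the cause was not tested. With no replicate block the low-clone counts were close to the blocked ones, at 870 and 976, and 1654 of the 1950 genes were called again. With the 250 bases before the start alone, 15 of 28 interferon-induced effectors held the interferon element. Dim genes and 1 array per clone and condition limit what can be detected.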
